A study of Rattus norvegicus with 14 samples.

Results

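Box H/ACA small nucleolar RNAs (snoRNAs) and small Cajal body RNAs (scaRNAs) were examined in whole blood of rats given amphetamine or saline. A non-coding RNA (ncRNA) was taken as a member when its name began with SNORA, SCARNA or ACA, whatever the case. Of 9199 ncRNAs listed, 3 met this rule, namely Scarna15 (ENSRNOT00000087677, gene ENSRNOG00000055316), Scarna3 (ENSRNOT00000089475, gene ENSRNOG00000060868) and Snora58 (ENSRNOT00000088711, gene ENSRNOG00000059872). No name began with ACA or SNORD, and 81.6% of the ncRNAs listed carried the name of a genome clone, so that H/ACA RNAs under such names are not included here.

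The animals were male Sprague-Dawley rats of 85 to 90 days, 7 in each group. Controls received 4 injections of saline at intervals of 2 h, and AMPH hyper rats received 4 of amphetamine at the same intervals and became pronouncedly hyperthermic. Blood was taken 3 h after the last injection, which is 9 h after the first. The comparison asks what amphetamine with hyperthermia did to circulating small RNA. Rats of the AMPH hyper group were kept only if they became hyperthermic, and the animals of this group were cooled during the exposure, so that effects of the drug and of body temperature cannot be told apart in these libraries. The animal of control replicate 3 is a control by its label and is listed with the AMPH hyper group in the study's animal records. It was kept as labelled, and no member or arm passed an unadjusted limma p of 0.05 without it. The animal of control replicate 4, also a control by its label, does not appear in those records. Leaving that animal out likewise gave no member or arm past an unadjusted limma p of 0.05.

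H/ACA RNAs fold into a pair of hairpins followed by the H box and the ACA box that name the family. They pair with a target RNA and direct the enzyme dyskerin to turn a uridine into pseudouridine. SnoRNAs of this kind act mainly on ribosomal RNA in the nucleolus, whereas scaRNAs reside in Cajal bodies and act on the small nuclear RNAs of the spliceosome. A few H/ACA RNAs are also cut into fragments of the size of a microRNA (miRNA), and ACA45, the human counterpart of Scarna15, is a known example. The libraries were selected for short inserts, so that the reads are fragments and not the intact guide RNAs.

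RefSeq (assembly GRCr8) lists all 3 loci as miRNA genes. Scarna15 is Mir1839, Scarna3 is Mir1843a and Snora58 is Mir3068. Of 76 SNORA or SCARNA symbols in RefSeq, 5 are miRNA genes, and these 3 are the only ones of the 76 that are listed among the ncRNAs here. The miRNA hairpins are printed 5′ to 3′ because they show the stretch that RefSeq lists as a miRNA under the symbol of each member. Sequences of the H/ACA transcripts counted here were not given, so where the hairpins lie relative to them was not examined. The 2 mature arms of each are in capitals.
Scarna15, chr1:144893856-144893919, plus strand, 64 bases: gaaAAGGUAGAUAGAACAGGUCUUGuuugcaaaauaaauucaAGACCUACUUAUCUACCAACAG
Scarna3, chr6:104955347-104955436, minus strand, 90 bases: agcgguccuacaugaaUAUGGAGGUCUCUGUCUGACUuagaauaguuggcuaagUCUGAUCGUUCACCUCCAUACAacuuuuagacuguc
Snora58, chr6:112811875-112811950, minus strand, 76 bases: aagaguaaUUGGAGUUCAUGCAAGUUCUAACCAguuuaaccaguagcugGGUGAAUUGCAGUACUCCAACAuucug

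The 6 mature arms are 21 to 25 bases long. Their seeds, bases 2 to 8 of the arm, are in capitals, because the seed is the stretch by which a miRNA is classed.
miR-1839-5p: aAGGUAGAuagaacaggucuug
miR-1839-3p: aGACCUACuuaucuaccaacag
miR-1843a-5p: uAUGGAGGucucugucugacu
miR-1843a-3p: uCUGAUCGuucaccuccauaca
miR-3068-5p: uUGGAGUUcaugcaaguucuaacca
miR-3068-3p: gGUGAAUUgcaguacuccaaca
No seed was shared among the 6. Of 693 rat miRNAs in RefSeq, only miR-1843b-3p had a seed of the 6, that of miR-1843a-3p. The letters ACA stood within the last 4 bases of all 3 of the 3p arms, read on the RNA strand. Among all 293 3p arms in RefSeq, these 3 included, 16 had them (5.46%). In an H/ACA RNA the box of these letters lies close to the 3′ end. The match is of letters only.

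A normalized count is a number of reads divided by the upper quartile of its library and multiplied by 1000. It was set separately for ncRNAs, mature miRNAs and hairpins. Reads were few. The 14 libraries held 1346419 to 4417124 reads on ncRNAs, where 1 read was worth 6.29 to 47.6 normalized counts. Scarna15 had 121 reads in all 14 libraries together, Scarna3 103 and Snora58 79, which is a mean of 8.64, 7.36 and 5.64 reads per library. Lengths of the transcripts were not used here, so the 3 are not ranked against each other.

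Levels were also computed as RPM, where 1 RPM is 1 read in 1000000 reads counted on ncRNAs. The 3 members together took 4.44 to 11.1 RPM in control blood, with a mean of 6.84 ± 2.46 (SD, n = 7). In AMPH hyper blood they took 3.24 to 15.4 RPM, with a mean of 9.11 ± 4.05 (SD, n = 7). The ranges overlapped, with 3 of 7 AMPH hyper animals above every control. Of the scaRNAs alone, the mean was 4.72 ± 1.89 RPM in control and 7.13 ± 3.69 in AMPH hyper blood (SD, n = 7 each). Both higher means came from Scarna3, whose mean was 0.873 RPM in control and 4.35 in AMPH hyper blood. The means of the other members were lower in AMPH hyper blood, at 3.84 and 2.78 RPM for Scarna15 and 2.12 and 1.98 for Snora58.

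Scarna3 gave the clearest separation of the groups. Its normalized counts in control replicates 1 to 7 were 57.1, 20.4, 69.0, 54.1, 23.3, 38.5 and 23.1. Those in AMPH hyper replicates 1 to 7 were 548, 0, 143, 400, 103, 125 and 169.8. Of 7 AMPH hyper animals 6 lay above every control, and replicate 2 lay below every control. At least 6 AMPH hyper animals were above every control for 0.769% of the 8454 ncRNAs tested. Measured in RPM, 5 of 7 were above every control.

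The values rested on 16 Scarna3 reads in control and 87 in AMPH hyper blood. AMPH hyper replicates 1 and 7 gave 34 and 27 of the 87, and no control gave more than 4. Counting error alone was wide at this depth. The 34 reads of AMPH hyper replicate 1, of 2931423 in its library, had a 95% interval (Clopper-Pearson) of 8.03 to 16.2 RPM, and the 4 reads of control replicate 3, of 2445767, one of 0.446 to 4.19 RPM. Such intervals cover counting error only. The pooled level was 0.835 RPM in control and 4.88 in AMPH hyper blood, a ratio of 5.84. For the library with 0 reads, a limit of 3 reads allows up to 1.08 RPM, which is within the range of the controls, 0.317 to 1.64 RPM.

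The limma test gave Scarna3 a log2 fold-change of 1.33 (SE 1.04), 2.52-fold on the scale of log2(normalized count + 1), with an adjusted p of 0.767. The exact permutation test (two-sided, n = 7 and 7, not adjusted for the 3 members) gave p = 0.299 on this scale. The same exact permutation test on RPM without logarithms, also not adjusted, gave p = 0.0163. These settings differ in the logarithm as well as in the scaling. With logarithms of RPM, the limma test gave a log2 fold-change of 1.26 (unadjusted p = 0.230, adjusted p = 0.951). Over the 14 fits without 1 animal, the exact permutation p on RPM without logarithms ran from 0.00117 to 0.0490. The limma result on normalized counts rested on AMPH hyper replicate 2. Without it the limma log2 fold-change was 2.43 with an unadjusted p of 0.000296 and an adjusted p of 0.0643. The exact permutation test then gave p = 0.000583, the smallest it can give for 13 animals, with 6 of 6 AMPH hyper animals above every control. Replicate 2 was the only animal of its group that did not exceed all controls. Leaving it out therefore fixed this p in advance, and the p is no added evidence of a difference. On the recovered reads of all 14 libraries, the edgeR quasi-likelihood test gave a log2 fold-change of 2.42 (unadjusted p = 0.00080, adjusted p = 0.173) and DESeq2 gave 2.46 (unadjusted p = 0.000239), with no adjusted p. Without control replicate 3 the limma log2 fold-change was 1.48 (adjusted p = 0.742). The exact permutation test on RPM without logarithms then gave p = 0.0315.

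**Figure D1:**
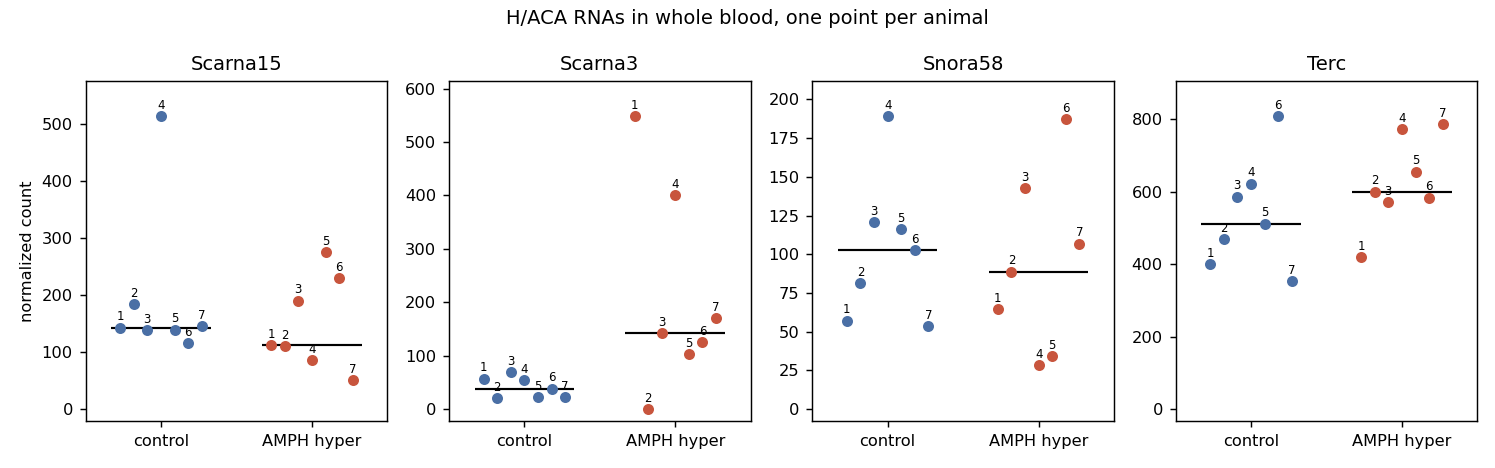
Normalized counts (y axis) of the 3 members and of Terc, a related RNA outside the name rule, in control and AMPH hyper animals (x axis). Each point is 1 animal with its replicate number, and lines are medians. For Scarna3, 6 of 7 AMPH hyper animals lie above every control and replicate 2 is at 0, while the groups overlap in the other panels.

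**Figure D2:**
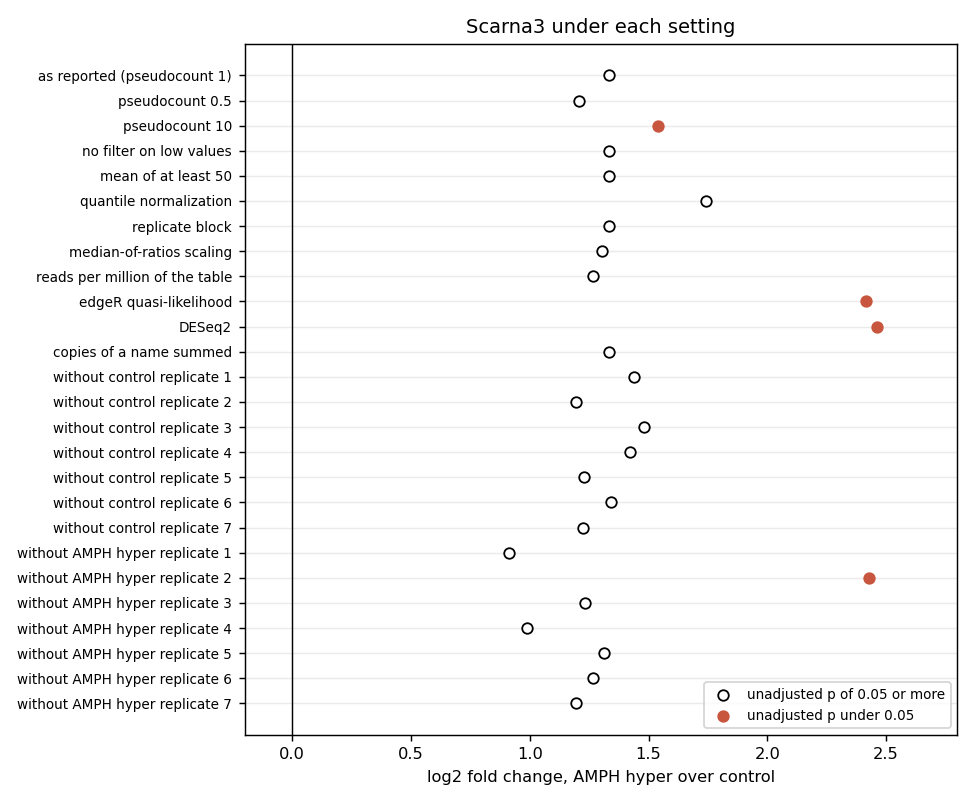
Log2 fold-change of Scarna3 (x axis) under each setting of the test (y axis). Filled points have an unadjusted p under 0.05. The values run from 0.91 to 2.46, and the highest belong to the count tests and to the fit without AMPH hyper replicate 2.

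Scarna15, a scaRNA assigned to the spliceosomal U2 RNA, overlapped between the groups. Its normalized counts in control blood were 115 at the lowest, 143 at the median and 514 at the highest, and in AMPH hyper blood 50.3, 113 and 276. The control high was replicate 4, which stood far from the other 6, none of which was above 184. No AMPH hyper animal was above every control, and 4 of 7 were below every control. The log2 fold-change was -0.39 (SE 0.45, limma adjusted p = 0.844), and -0.13 without control replicate 4. An interval of 2 SE runs from -1.28 to 0.51.

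Snora58, assigned to the large ribosomal RNA, had control normalized counts of 53.8 at the lowest, 103 at the median and 189 at the highest. In AMPH hyper blood they were 28.6, 88.9 and 188. The groups overlapped over nearly their whole ranges, with 3 of 7 AMPH hyper animals above the control median. The log2 fold-change was -0.29 (SE 0.50, limma adjusted p = 0.900), with an interval of 2 SE from -1.30 to 0.72.

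The telomerase RNA Terc, an H/ACA RNA outside the name rule that carries the template for telomere repeats, had more reads than any member, 489 in all. Its control normalized counts were 354, 512 and 808 at the lowest, median and highest, and its AMPH hyper counts 419, 600 and 786. Above the control median lay 6 of 7 AMPH hyper animals, and none was above every control. The log2 fold-change was 0.25 (SE 0.24, limma adjusted p = 0.821).

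None of the 3 members passed an adjusted p of 0.05, against 0.130% of the ncRNAs tested. None passed an unadjusted limma p of 0.05, against 6.92%. In the exact test on RPM without logarithms, a scale added after the data were seen, Scarna3 had p = 0.0163, given before. The share of all ncRNAs under 0.05 in that test was not computed. Scarna3 alone passed the unadjusted threshold of a fit with a pseudocount of 10 (7.16% of ncRNAs tested), with edgeR (9.03%), with DESeq2 (8.59%) and without AMPH hyper replicate 2 (7.81%). The median log2 fold-change of the members was -0.29, beside -0.05 over all ncRNAs tested.

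The 11 ncRNAs that passed the adjusted threshold were all higher in AMPH hyper blood, and in all 11 AMPH hyper replicate 2 was the lowest of its group. It was the lowest of its group for 13.2% of ncRNAs tested. The list of 11 was not stable, as limma called 0 ncRNAs in 10 of 14 fits that left out 1 animal, 33 without AMPH hyper replicate 2 and 0 with the replicate number as a block, and DESeq2 called 64, of which 13 were lower. With group means subtracted, Scarna3 correlated with these 11 across the 14 libraries with Pearson's r of 0.55 to 0.90 and a median of 0.86, while its median r over all ncRNAs tested was -0.04. The 11 were chosen from these same data. Scarna3 too was lowest in AMPH hyper replicate 2, so this library enters every coefficient, and r without it was not computed. These coefficients share libraries and depth and are given as a description. Among the members, the r between pairs was 0.00 for Scarna15 and Scarna3, 0.27 for Scarna15 and Snora58 and -0.12 for Scarna3 and Snora58.

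The mature arms of the same loci were measured with more reads. The miR-1839 arms had 5116 reads in the 14 libraries, the miR-1843a arms 1634 and the miR-3068 arms 1269. Each read on Scarna15 was thus matched by 42.3 on its arms, with 15.9 for Scarna3 and 16.1 for Snora58. For Scarna3 this ratio was 54.2 in control and 8.82 in AMPH hyper blood, from 867 and 767 reads on the arms. It was 37.1 and 50.7 for Scarna15, and 17.2 and 14.9 for Snora58. These ratios pool the reads of a group and were not tested between the groups. AMPH hyper replicates 1 and 7 gave 34 and 27 of the 87 Scarna3 reads of their group. Whether reads on an arm were also counted on the ncRNA is not given in the sources used here.

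miR-1843a-5p, the main arm of the Scarna3 locus, ranged from 594 to 1022 normalized counts in control blood with a median of 775, and from 642 to 1110 in AMPH hyper blood with a median of 713. The groups overlapped, with 1 AMPH hyper animal above every control. The log2 fold-change was 0.03 (SE 0.20, limma adjusted p = 0.963), and an interval of 2 SE runs from -0.37 to 0.42. It shares a run of 20 bases with miR-1843b-5p, a near copy of 23 bases from another locus, so reads may have been split between them. miR-1843b-5p had medians of 299 in control and 421 in AMPH hyper blood (log2 fold-change 0.35, SE 0.23, limma adjusted p = 0.958).

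miR-1843a-3p was scarce, at 1 to 10 reads per library. Its normalized counts were 19.5 to 42.1 in control and 8.23 to 43.2 in AMPH hyper blood, with a log2 fold-change of -0.28 (SE 0.44, limma adjusted p = 0.958). No difference was detectable at this depth.

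miR-1839-5p was the most abundant of the 6 arms, with control counts of 1651 to 3496 (median 1878) and AMPH hyper counts of 1172 to 3334 (median 2424). Its log2 fold-change was -0.07 (SE 0.25, limma adjusted p = 0.963). miR-1839-3p had medians of 369 and 323 and 3 of 7 AMPH hyper animals below every control (log2 fold-change -0.21, SE 0.20, limma adjusted p = 0.958).

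miR-3068-3p had control counts of 408 to 648 (median 515) and AMPH hyper counts of 396 to 681 (median 503), with a log2 fold-change of -0.07 (SE 0.19, limma adjusted p = 0.963). miR-3068-5p had 82.6 to 169 in control and 47.5 to 168 in AMPH hyper blood (log2 fold-change -0.14, SE 0.31, limma adjusted p = 0.958). Of the 6 arms, 0 passed an adjusted p of 0.05, against 0.303% of the 330 miRNAs tested, and 0 passed an unadjusted p of 0.05, against 4.55%. The edgeR and DESeq2 tests passed 0 of the 6 at either threshold.

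**Figure D3:**
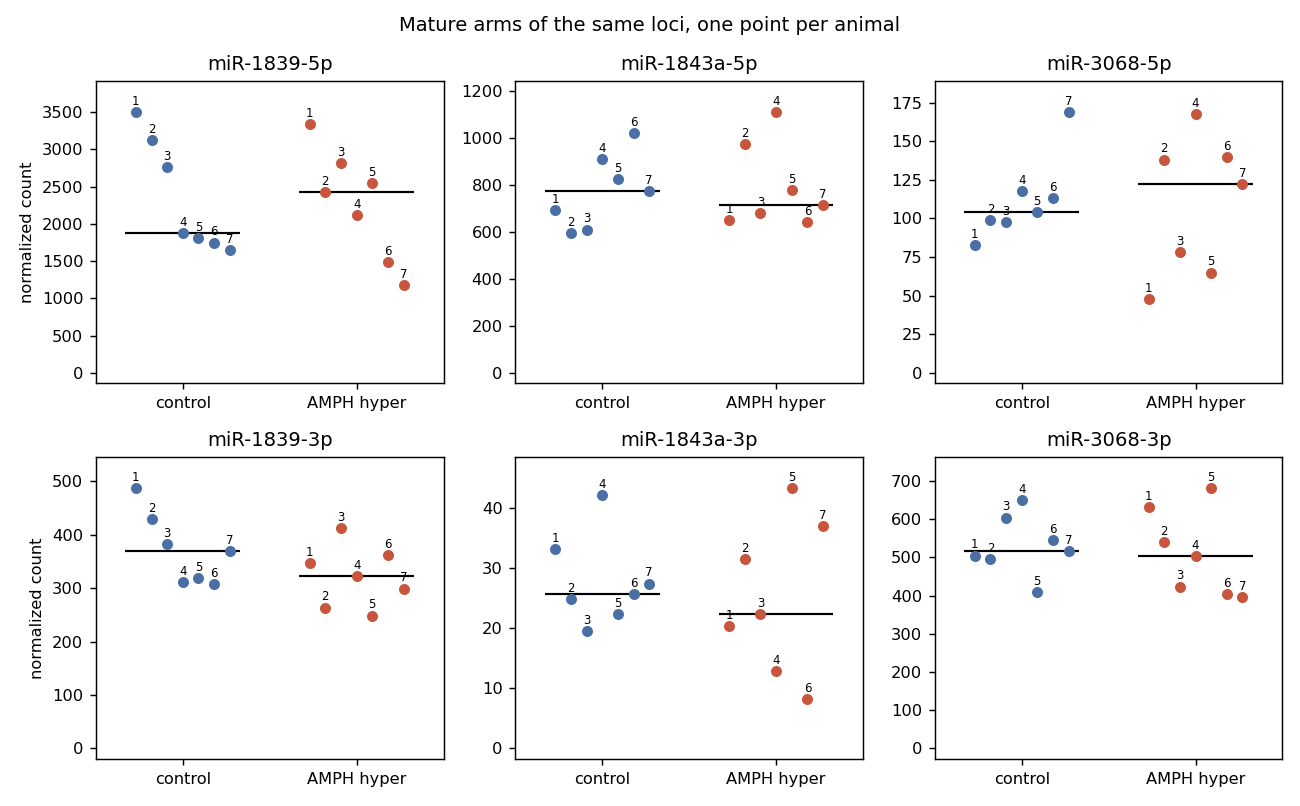
Normalized counts (y axis) of the 6 mature arms in control and AMPH hyper animals (x axis), 1 point per animal with its replicate number and a line at the median. The groups overlap in every panel.

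The loci differed in which arm held more reads. At the Scarna15 locus the 5p arm had 3.91 to 10.2 reads for each read of the 3p arm, and at the Scarna3 locus 18 to 86. At the Snora58 locus the order was the opposite in all 14 libraries, with 0.0753 to 0.347 reads of the 5p arm for each of the 3p arm. No ratio passed the test between the groups (exact permutation test on log2 ratios, two-sided, n = 7 and 7, p = 0.550, 0.389 and 0.853, and 0.825, 0.825 and 0.853 after Benjamini-Hochberg adjustment over the 3 loci).

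The hairpins were counted in a table of their own. mir-1839 had a median of 3866 normalized counts in control and 3303 in AMPH hyper blood (log2 fold-change -0.15, SE 0.22). For mir-1843a the medians were 278 and 304 (log2 fold-change -0.01, SE 0.25), and for mir-3068 795 and 776 (log2 fold-change -0.06, SE 0.21). Of these 3, 0 passed an unadjusted limma p of 0.05, against 3.99% of the 476 hairpins tested, and limma adjusted p-values were 0.978 to 0.991.

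As a share of all normalized hairpin counts, mir-1839 was lower in AMPH hyper blood, at 0.0220% ± 0.00271 in control and 0.0175% ± 0.00176 in AMPH hyper animals (SD, n = 7 each). Of 7 AMPH hyper animals 5 were below every control (exact permutation test, two-sided, p = 0.00291, not adjusted over the hairpins), and p was 0.00117 to 0.00583 with each animal left out. This scale was added after the values were seen, and 3.15% of the hairpins tested passed 0.05 on it. The share of hairpins with at least 5 AMPH hyper animals below every control, or with a p as small, was not computed. The log2 ratio of the mean shares was -0.33 for mir-1839, -0.17 for mir-1843a and -0.11 for mir-3068, beside a median of -0.15 over all 476 hairpins. The shares of mir-1843a and mir-3068 gave exact permutation p-values of 0.594 and 0.695. On reads per 1000000 miRNA reads, the arms miR-1839-5p and miR-1839-3p gave p = 0.515 and 0.117 (exact permutation test, two-sided, not adjusted).

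No relation between the reads on a member and those on its arms passed the test. Across the 14 libraries, Pearson's r between the log2 values was 0.19 for Scarna15, -0.24 for Scarna3 and -0.36 for Snora58, with permutation p-values of 0.527, 0.423 and 0.202. Spearman's rho was 0.10, -0.14 and -0.25 (permutation p = 0.728, 0.627 and 0.391), and no adjusted p over the 3 relations was under 0.527. Without the 2 libraries farthest from the median, r was -0.15, -0.57 and -0.23. Within groups, r was -0.13, 0.01 and 0.34 in control and 0.40, -0.38 and -0.81 in AMPH hyper blood.

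**Figure D4:**
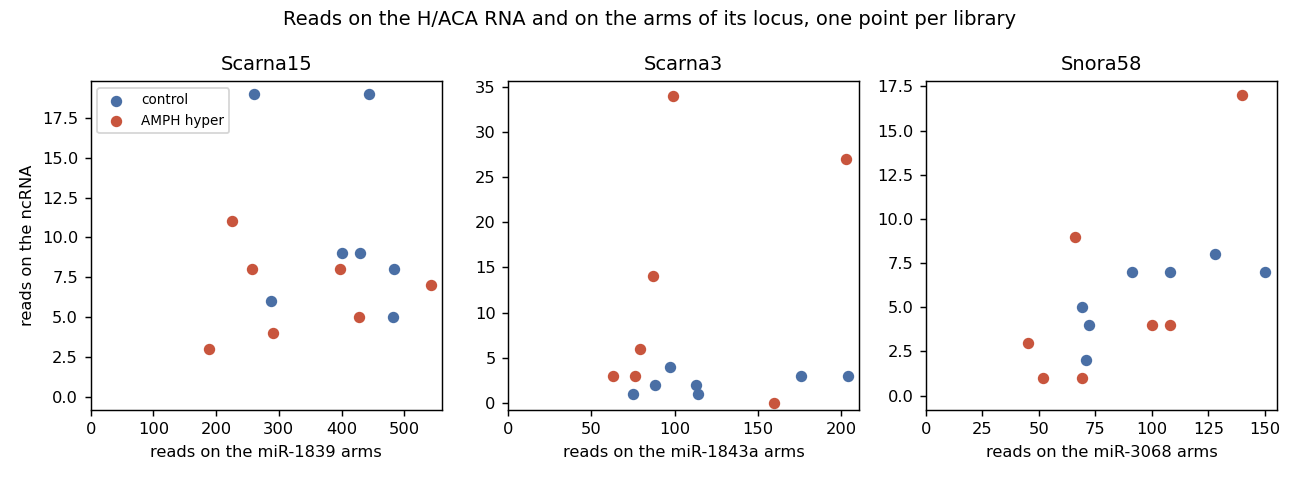
Reads on each member (y axis) against reads on the arms of its locus (x axis), 1 point per library, coloured by group. AMPH hyper replicate 1 has 34 Scarna3 reads and replicate 7 has 27, against at most 4 in any control.

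RefSeq places other H/ACA loci among miRNA genes as well. miR-664-3p, of the Snora36c locus, had medians of 318 normalized counts in control and 301 in AMPH hyper blood (log2 fold-change -0.17, SE 0.23, limma adjusted p = 0.958). miR-3084d, of the Snora19 locus, was at 0 in 6 of 14 libraries and had at most 3 reads.

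miR-1839-5p followed the number that each library carries in its name. It was 3496 normalized counts in library 1 and 1172 in library 14, with both groups on the same course. Pearson's r with the library number was -0.90 and Spearman's rho -0.91 (permutation p = 3.00e-05 for each, 0.00027 after Benjamini-Hochberg adjustment over 9 such relations). Without the 2 libraries farthest from the median number r was -0.84, and it was -0.94 in control and -0.89 in AMPH hyper animals. Of the 330 miRNAs tested only miR-1839-5p itself had a rho this far from 0, and the median size of rho was 0.34. The mean library number was 6.71 for control and 8.29 for AMPH hyper animals. The relation was sought after the values were seen. Of the other 8 features, no adjusted p was under 0.149. What the number stands for is not given in the sources used here. In the labels it rises in the same order as the number of the animal, so these orders cannot be told apart. The part of either in the result was not tested.

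**Figure D5:**
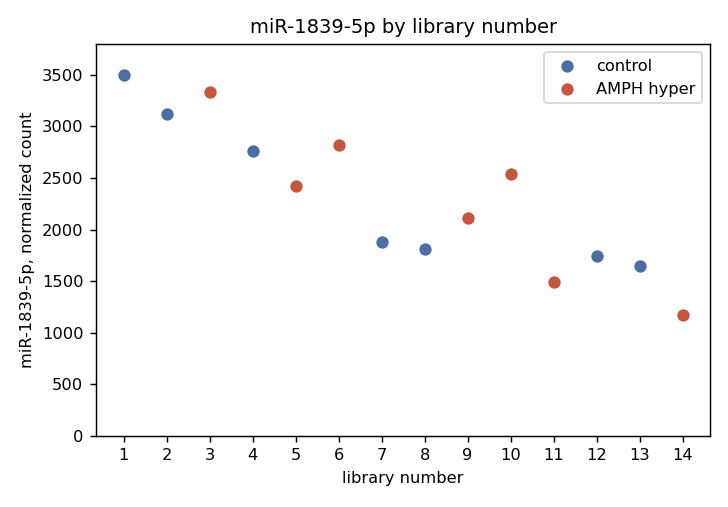
Normalized count of miR-1839-5p (y axis) against library number (x axis), 1 point per library, coloured by group. Values run from 3496 in library 1 to 1172 in library 14, in both groups alike.

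The share of the members in ncRNA reads was compared with features of the blood sample. With the share of miR-150-5p, a miRNA of lymphocytes, Pearson's r on the log2 scale was -0.48 (permutation p = 0.0861, adjusted p = 0.283) and Spearman's rho -0.58 (permutation p = 0.0342, adjusted p = 0.137 over 4 relations). Without the 2 libraries farthest from the median r was -0.65, and it was -0.27 in control and -0.46 in AMPH hyper animals. With ncRNA reads, the myeloid miR-223-3p and the red cell miR-451-5p, r was 0.14, 0.41 and 0.22 (permutation p = 0.622, 0.141 and 0.451) and rho 0.09, 0.48 and 0.15 (permutation p = 0.748, 0.0834 and 0.614). Without the 2 farthest libraries these r were -0.00, 0.23 and 0.10.

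The libraries carried the marks of whole blood. The 7 red cell miRNAs of miR-451, miR-144, miR-486 and miR-16 took 61.8 to 72.6% of miRNA reads in control and 63.3 to 72.7% in AMPH hyper blood. Leukocyte miRNAs of miR-142, miR-150 and miR-155 took 0.575 to 2.03% and 0.272 to 1.34%, and the myeloid miR-223 0.0150 to 0.0940% and 0.0204 to 0.0844%. Platelet miR-126a took 0.0131 to 0.0499% and 0.0146 to 0.0315%, liver miR-122 0.000859 to 0.0266% and 0.00253 to 0.0190%, muscle and heart miRNAs 0.000101 to 0.0133% (median 0.00112%) and 0.000471 to 0.00642% (median 0.00349%), and brain miRNAs 0.0000993 to 0.000881% (median 0.000134%) and 0.000106 to 0.000474% (median 0.000225%). No list passed the test between the groups (exact permutation test, two-sided, n = 7 and 7, adjusted p of 0.602 to 0.891). That test was of the summed share of each list, and the single miRNAs of a list are not shown here. The paper reports miR-133a-3p, of the muscle list, as higher in AMPH hyper blood by small RNA sequencing. In bulk blood, fewer cells of a type and less RNA per cell cannot be told apart.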

How the data were processed

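Small RNA libraries of whole blood from 7 control and 7 AMPH hyper rats, each a separate animal, were analysed by the groups in the labels. The authors deposited normalized counts for 9199 ncRNAs, 516 mature miRNAs and 495 hairpins. These deposited signal values are reads divided by the library's upper quartile and multiplied by 1000, each table on its own. Bowtie is named in the submitters' processing notes. The genome build and the handling of reads with several matches are not given in the sources used here. Of the ncRNA and miRNA values, 100% were whole multiples of a single read (tolerance 0.02 reads), and reads were recovered from them. Libraries held 1346419 to 4417124 ncRNA reads and 3738295 to 8286151 miRNA reads.

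Each table was tested whole with limma 3.58.1 in R 4.3.3 (eBayes with trend) on log2(normalized count + 1). Rows whose mean was below 10 were left out, p-values were adjusted after Benjamini-Hochberg, and 0.05 was the threshold. Single values were tested by exact permutation over the 3432 divisions of the animals (smallest p 0.000583), and correlations with 100000 permutations. The scripts were tested on simulated data. The alternatives were pseudocounts of 0.5 and 10, other filters and scalings, edgeR 4.0.16, DESeq2 1.42.0, summed copies of a name, the replicate number as a block and each animal left out. Named were all members, Terc and the miRNA arms and hairpins of their loci. The members and lists were chosen with earlier results of these data known, and the arm, hairpin, hairpin share and library number analyses were added after the values were seen. Same-numbered animals did not deviate together (r of -0.02 to 0.23), so the numbers do not pair them, and no pair of libraries of a group agreed within sampling noise.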

Additional observations from a re-analysis of the deposited data

Results flagged for a closer look

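Of the 30 sets of 7 animals examined (members, Terc, arms, hairpins and class shares on the log2 scale), 2 held an animal that stood apart by Dixon's test, where chance gives about 1.5. In control blood Scarna15 was highest in replicate 4, at 514 normalized counts (19 reads). In AMPH hyper blood Scarna3 was lowest in replicate 2, at 0 normalized counts, where the next lowest animal had 103.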

How the results depend on the processing

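No member and no arm passed an adjusted p of 0.05 under any alternative that gave one. DESeq2 gave the members no adjusted p. In fits over all ncRNAs, the number of members past an unadjusted p of 0.05 was 0 as reported and 1 with a pseudocount of 10, with edgeR, with DESeq2 and without AMPH hyper replicate 2, Scarna3 each time, and leaving out each animal in turn gave 0 to 1. The difference in the H/ACA share, 2.28 RPM as reported, was -0.14 for SNORA names alone. It was 1.24 without AMPH hyper replicate 1, the lowest of 1.24 to 3.25 with each animal left out. That of the scaRNAs, 2.41 RPM, was 3.47 without Scarna15, and 1.27 (without AMPH hyper replicate 1) to 3.30 (without replicate 2) with each animal left out. The replicate number as a block, which does not pair these animals, cannot move a difference in a balanced design. With it Scarna3, at 1.33, had a limma adjusted p of 0.760.

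Directions near 0 turned for some arms and hairpins. The log2 fold-change of miR-1843a-5p was -0.059 on RPM and -0.044 with edgeR. With each animal left out, miR-1843a-5p ran from -0.058 to 0.10, miR-1839-5p from -0.17 to 0.080, miR-3068-5p from -0.26 to 0.039, mir-1843a from -0.12 to 0.090 and mir-3068 from -0.14 to 0.061. Scaling to RPM, added after the data were seen, set the median over all ncRNAs tested at -0.16, against -0.05 as reported.

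Box C/D ratios and relations with SNORD or small nuclear RNA shares were not run, as no row carried such a name. Hairpin reads were not recovered, so no share over both tables was computed. No member reached a mean of 50 reads. In the limma fit with a pseudocount of 1, the interval of 2 SE around Scarna3 runs from -0.74 to 3.41 on the log2 scale. That pseudocount is far below 1 read, which was worth 22.2 normalized counts in AMPH hyper replicate 2, the library without Scarna3 reads. The interval thus depends on the pseudocount as well as on depth. With a pseudocount of 10 the log2 fold-change was 1.54 (limma unadjusted p = 0.0284, adjusted p = 0.627).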
